A study of Mus musculus with 4 samples.

Results

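The TGF-beta and IGF growth factor genes are 10 genes chosen by name, out of 12393 genes with a probe set of their own on the array: the ligands Tgfb1, Tgfb2 and Tgfb3, the receptors Tgfbr1 and Tgfbr2, the ligands Igf1 and Igf2, and the binding proteins Igfbp3, Igfbp5 and Igfbp7. Every probe set whose platform gene symbol is one of these was taken, 22 in all, and each was read on all 4 arrays. The study asked what the cytokine IL-18 does to gene expression when the left ventricle is overloaded by transaortic constriction (banding), a narrowing of the aorta. The arrays carried, 1 each, RNA of IL-18 null banded, IL-18 null sham-operated, wild-type banded and wild-type sham-operated ventricles. The IL-18 null banded pool came from 6 mice banded for 1 week, labelled as null on a C57BL/6 background, and the IL-18 null sham pool from 5 mice. The banding time, strain and exact pool size of the wild-type pools are not stated in the sources used here, except that the series design gives 5 to 6 mice per group. Ages and sexes are not stated either.

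TGF-beta ligands are secreted in a latent form, are released in the tissue, and signal through a complex of type II and type I receptor kinases that phosphorylates SMAD proteins. In the heart they are best known as drivers of fibroblast activation and matrix deposition. IGF ligands act through a receptor tyrosine kinase on growth and survival signalling, while IGF-binding proteins carry them and limit or prolong their action.

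Values are GCRMA intensities on a linear scale, and differences are given on the log2 scale. A floor of 64 intensity units (log2 6) was set, and lower values were raised to it before differences were taken. A difference with 1 array below the floor is therefore a bound. A difference of at least 2-fold (log2 1) was counted as large. With 1 array of pooled RNA per group there is no replicate error, so no comparison of 2 arrays has a test, and neighbours in an order of levels cannot be told apart by a spread. Pooling also hides the variation between mice. Because the RNA is that of ventricle tissue, fewer cells of a type and less RNA per cell cannot be told apart.

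The arrays differed in quality. The mean log2 excess of the 3′ over the middle probe set of Gapdh, Actb and the bacterial control dap was 3.01 ± 1.47 in IL-18 null banded, 3.37 ± 1.14 in IL-18 null sham, 0.72 ± 1.14 for wild-type banded and 4.74 ± 0.14 for wild-type sham (SD over 3 transcripts). With values raised to the floor, the wild-type sham index was 3.04. Hybridisation controls, which are sequences added to the sample after labelling, had 11 of 18 probe sets that reached the floor on all 4 arrays. All 11 were higher on the IL-18 null banded array than on the IL-18 null sham array, by 0.27 to 1.46 with a median of 0.60, and their median difference was 0.20 for banding in wild type. Between IL-18 null and wild type their median difference was -0.11 in banded and -0.41 in sham. The part of these differences in the results below was not tested. Il18, the deleted gene, had intensities of 8.4, 8.2, 7.4 and 9.1 in IL-18 null banded, IL-18 null sham, wild-type banded and wild-type sham. None of these reached the floor, so the deleted gene was no check of the labels. All 7 cardiomyocyte markers (among them Myh6, Tnnt2 and Myl2) reached the floor, with summed intensities between 136726 and 166368, as in the labelled tissue, heart muscle.

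Of the 22 probe sets, 7 reached the floor on some array and 6 on all 4. They stood for 6 of the 10 genes: Tgfbr1, Tgfbr2, Igf1 (2 probe sets), Igfbp3, Igfbp5 and Igfbp7. The other 15 probe sets lay between 1.6 and 47.2 intensity units on every array, and they included every probe set of Tgfb1, Tgfb2, Tgfb3 and Igf2. The 6 probe sets measured on all arrays ranged over 0.37 to 1.73 on the log2 scale between their lowest and highest array, against a median range of 0.88 over all 5378 probe sets measured on all arrays. Igfbp7 (1.73) and Igf1 (1.56) ranged the most, and Tgfbr2 (0.37) ranged less than all but 13.8% of those probe sets.

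**Figure D1:**
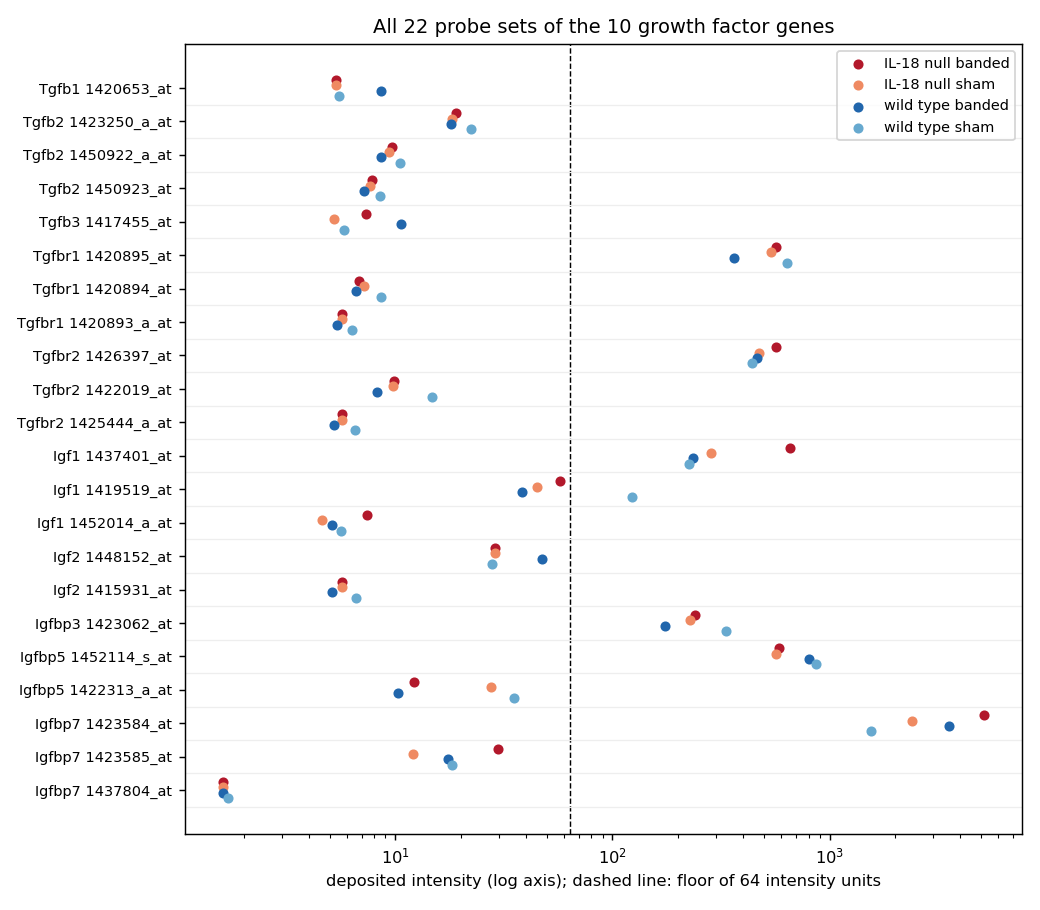
Deposited intensity (log axis) of all 22 probe sets of the 10 genes, with 1 point for each of the 4 arrays and a dashed line at the floor of 64 intensity units. The probe sets of Tgfb1, Tgfb2, Tgfb3 and Igf2 lie left of the line on every array, and only 7 probe sets have a point right of it.

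In IL-18 null mice, Igf1, which encodes the growth factor IGF-1, and Igfbp7, which encodes a secreted protein of the IGF-binding family found in vessel walls, were the members whose signal in the banded array was at least 2-fold that in the sham array. The proximal promoters of these genes, 250 bases before to 50 after the annotated start, are shown. The brightest probe set of each gene had its highest signal on the IL-18 null banded array, at least 2-fold that in sham. The brightest probe set of Tgfbr2 was also highest on that array, but it ranged over only 0.37 between arrays, and its promoter is not shown. The sequences are from RefSeq, build GRCm38.p6: Igf1 at chr10:87860861-87861160 on the plus strand and Igfbp7 at chr5:77407996-77408295 on the minus strand. Capitals mark a match to the AP-1 pattern TGANTCA in Igf1, with A at the open position N, and GC boxes in Igfbp7.
Igf1: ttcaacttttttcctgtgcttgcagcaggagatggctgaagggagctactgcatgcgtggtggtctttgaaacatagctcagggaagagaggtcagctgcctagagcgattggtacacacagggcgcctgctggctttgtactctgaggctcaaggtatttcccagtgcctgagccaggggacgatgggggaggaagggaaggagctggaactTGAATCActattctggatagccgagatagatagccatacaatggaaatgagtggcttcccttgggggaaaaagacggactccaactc
Igfbp7: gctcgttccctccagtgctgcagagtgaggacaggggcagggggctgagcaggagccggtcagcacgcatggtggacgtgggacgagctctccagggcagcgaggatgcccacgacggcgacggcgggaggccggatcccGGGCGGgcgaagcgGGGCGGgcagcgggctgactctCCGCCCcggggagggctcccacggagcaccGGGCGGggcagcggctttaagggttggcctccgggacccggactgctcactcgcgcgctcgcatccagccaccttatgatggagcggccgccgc

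Both strands were searched for 4 motifs. The AP-1 motif was taken as TGANTCA, where N is any base. The SMAD box was taken as CAGAC. The GC box was taken as GGGCGG. The TATA box was taken as TATAAA. No matches overlapped in these windows. The Igf1 window held 1 AP-1 motif and none of the others, and the Igfbp7 window held 4 GC boxes and none of the others. Of 32851 promoter windows of this length, 7.81% held the AP-1 motif, 49.6% the SMAD box, 35.7% the GC box and 13.6% the TATA box. These matches describe the letters of the windows only.

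Among the TGF-beta ligands, the signal was too low to compare arrays. TGF-beta 1, encoded by Tgfb1, is the form most studied in cardiac fibrosis. Its 1 probe set gave 5.3 in IL-18 null banded, 5.3 in IL-18 null sham, 8.6 in wild-type banded and 5.5 in wild-type sham. The 3 probe sets of Tgfb2 and the 1 of Tgfb3, which encode the other TGF-beta forms, stayed between 5.2 and 22.2. A value under the floor is not well above the level at which most probe sets of these arrays lie (median intensities of 11.3 to 13.7), so neither a presence nor a lack of the transcripts can be read from it.

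The TGF-beta receptors were measured. Tgfbr1, the type I receptor kinase, had intensities of 565.3 in IL-18 null banded, 538.9 in IL-18 null sham, 362.3 in wild-type banded and 633.9 in wild-type sham. The lowest array was thus wild-type banded and the highest wild-type sham, while the IL-18 null arrays were close to each other. The banding difference was 0.07 in IL-18 null and -0.81 in wild type, neither of them 2-fold. Its 2 other probe sets lay between 5.4 and 8.6 on all arrays. Tgfbr2, the type II receptor that binds the ligand first, had 565 in IL-18 null banded, 475.4 in IL-18 null sham, 464.9 in wild-type banded and 438 in wild-type sham. These levels were the most even of the measured members, with banding differences of 0.25 in IL-18 null and 0.09 in wild type. Its 2 other probe sets lay between 5.2 and 14.7.

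Igf1 had a single array apart from the rest. Its brightest probe set, 1437401_at, had 658.5 in IL-18 null banded, 283.1 in IL-18 null sham, 234.5 in wild-type banded and 224 in wild-type sham. Signal in IL-18 null banded was 2.33-fold that in IL-18 null sham, and the other 3 arrays lay close together. The second probe set, 1419519_at, ran differently, with 57.5 in IL-18 null banded, 44.7 in IL-18 null sham, 38.3 in wild-type banded and 122.4 in wild-type sham. Here wild-type sham alone was above the floor. Its difference was a bound of -0.94 for banding in wild type and of -0.94 for genotype in sham, and both IL-18 null arrays were below the floor. The probe sets of Igf1 therefore disagreed in which array was highest, and where each lies along the transcript is not stated in the sources used here. The third, 1452014_a_at, stayed between 4.6 and 7.4. Igf2, which encodes the fetal growth factor IGF-2, was below the floor on both its probe sets. The brighter of these, 1448152_at, had 28.8 in IL-18 null banded, 28.7 in IL-18 null sham, 47.2 in wild-type banded and 27.8 in wild-type sham.

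The binding proteins differed from one another in their order of arrays. Igfbp7 had 5165.5 in IL-18 null banded and 2409.9 in IL-18 null sham, against 3553.1 in wild-type banded and 1554.9 in wild-type sham. Each banded array was above its own sham array and above both sham arrays. The difference was 1.10 (2.14-fold) in IL-18 null and 1.19 (2.29-fold) in wild type. Of its 2 other probe sets, both below the floor, 1423585_at gave 29.7 in IL-18 null banded, 12.1 in IL-18 null sham, 17.5 in wild-type banded and 18.3 in wild-type sham, and 1437804_at stayed between 1.6 and 1.7.

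Igfbp3, the main carrier of IGF in blood, had 240.2 in IL-18 null banded, 226.8 in IL-18 null sham, 174.7 in wild-type banded and 333.6 in wild-type sham. As with Tgfbr1, wild-type banded was lowest and wild-type sham highest of the 4 arrays. The banding difference was 0.08 in IL-18 null and -0.93 in wild type. Igfbp5, a binding protein held in the extracellular matrix, had 587.7 in IL-18 null banded and 566 in IL-18 null sham, against 804 in wild-type banded and 867.4 in wild-type sham. Its wild-type arrays were both above its IL-18 null arrays, and banding differences were 0.05 in IL-18 null and -0.11 in wild type. The second probe set of Igfbp5, 1422313_a_at, had 12.2 in IL-18 null banded, 27.5 in IL-18 null sham, 10.3 in wild-type banded and 35.3 in wild-type sham, all under the floor.

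**Figure D2:**
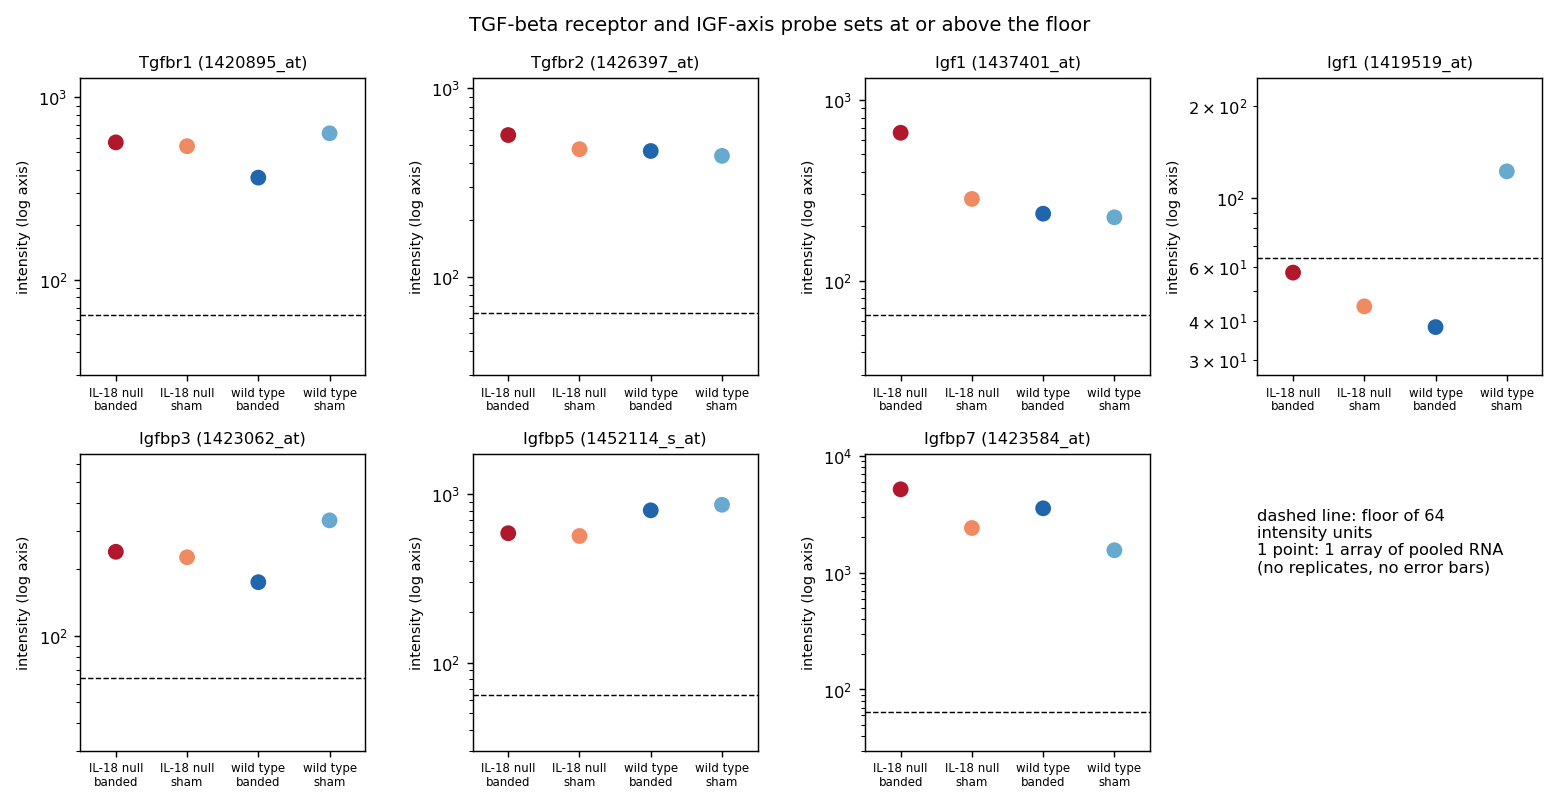
Deposited intensity (log axis) of the 7 probe sets that reached the floor of 64 intensity units (dashed line) on some array, with 1 point per array and no error bars, since each group has 1 array. Igf1 1437401_at stands at 658.5 in IL-18 null banded against 224 to 283.1 elsewhere, and Igfbp7 is higher in both banded arrays than in both sham arrays.

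Set against all probe sets, the counts of members were as follows. For banding in IL-18 null, 2 of 6 measured probe sets were at least 2-fold higher, where 6.64% of 6743 probe sets were, and 0 were lower, where 4.20% were. The members' differences ran from 0.05 to 1.22 around a median of 0.06 for all probe sets. The Igf1 difference of 1.22 was reached by 4.12% of the probe sets and the Igfbp7 difference of 1.10 by 5.31%. After quantile normalization Igfbp7 was at 0.96 and after cyclic loess at 0.99, both just under 2-fold, while Igf1 was at 1.12 and 1.13. Of all probe sets 5.25% were then higher and 5.06% lower under quantile normalization, and 5.47% and 5.05% under cyclic loess.

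For banding in wild type, 1 of 7 measured probe sets was at least 2-fold higher, Igfbp7, where 24.9% of 7200 probe sets were, and 0 were lower, where 11.5% were. A difference as large as that of Igfbp7 was common between these arrays and was reached by 22.0% of probe sets. The background depended on the scaling: 19.6% were higher and 22.8% lower under quantile normalization, and 27.8% and 7.46% under cyclic loess. The median over all probe sets was -0.02 as deposited, -0.34 after quantile normalization and 0.16 after cyclic loess. Relative to that median Igfbp7 was higher by 1.21, 1.22 and 1.18 under the 3 scalings. Before that subtraction its value under quantile normalization was 0.89, less than 2-fold. Under quantile normalization Igfbp3 was at -1.39, Igf1 1419519_at at a bound of -1.28 and Tgfbr1 at -1.14 in wild type. Relative to the median of all probe sets, Igfbp3 was at -0.92 as deposited, -1.05 after quantile normalization and -0.89 after cyclic loess. On the same footing Igf1 1419519_at was at -0.92, -0.95 and -1.005, and Tgfbr1 at -0.79, -0.80 and -0.78.

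Between genotypes, the largest member difference was that of Igf1 in banded hearts. In the banded arrays 1 of 6 measured probe sets lay at least 2-fold above wild type in IL-18 null, where 5.11% of 7039 probe sets did, and 0 lay below it, where 10.9% did. This was Igf1 1437401_at, at 1.49 (2.81-fold), a size reached by 1.63% of probe sets. Tgfbr1 (0.64), Igfbp7 (0.54), Igfbp3 (0.46) and Tgfbr2 (0.28) were above 0 as well, and Igfbp5 was at -0.45. The Igf1 value ran from 1.32 to 1.58 over the alternative settings, of which only quantile normalization and cyclic loess could change it. It shares the IL-18 null banded array with the banding difference of 1.22, so the values are not independent. Under cyclic loess 3.42% of all probe sets were higher and 12.9% lower.

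In the sham arrays 0 of 7 measured probe sets lay 2-fold above or below wild type in IL-18 null, where 18.4% and 6.02% of 6797 probe sets did (15.2% and 12.1% under quantile normalization). The members' values ran from -0.94, the bound of Igf1 1419519_at, to 0.63 for Igfbp7. Igf1 1437401_at was at 0.34, Tgfbr2 at 0.12, Tgfbr1 at -0.23, Igfbp3 at -0.56 and Igfbp5 at -0.62. With a floor of 32 intensity units in place of 64, Igf1 1419519_at was at -1.45. This comparison and banding in wild type both subtract the wild-type sham array.

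**Figure D3:**
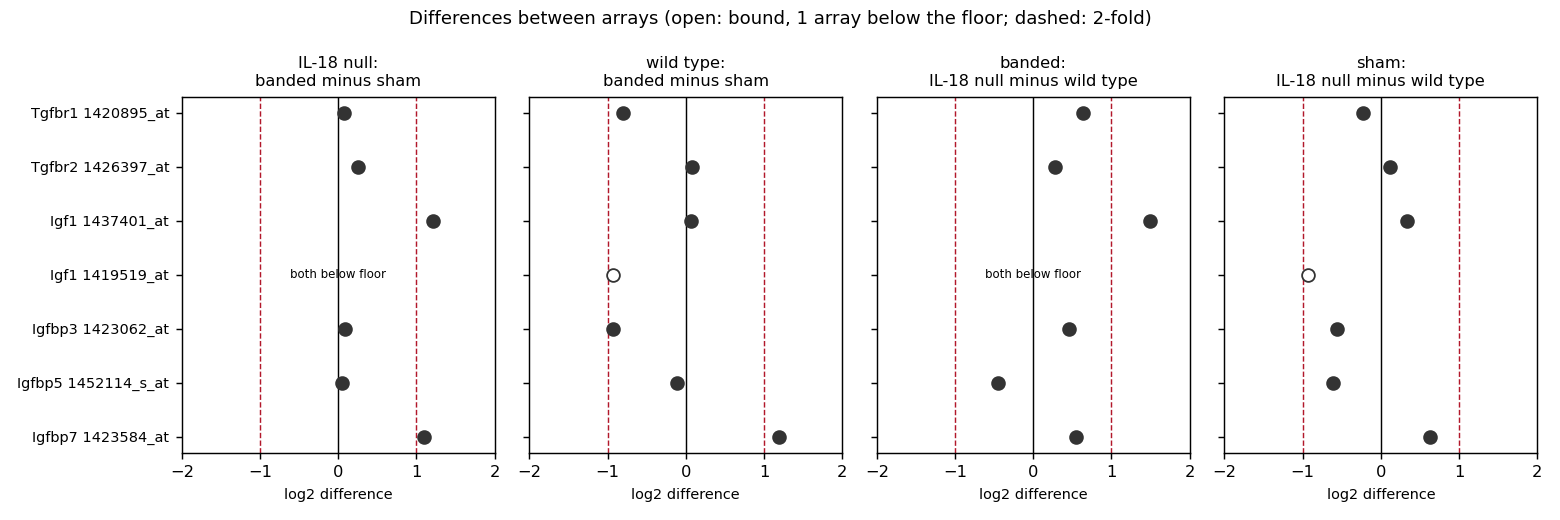
Log2 differences of the 7 measured probe sets in 4 comparisons of 2 arrays, banded minus sham in each genotype and IL-18 null minus wild type in each surgery group. Open points are bounds with 1 array below the floor, and dashed lines mark 2-fold. Igf1 1437401_at lies past 2-fold for banding in IL-18 null (1.22) and for genotype in banded hearts (1.49), and Igfbp7 for banding in both genotypes (1.10 and 1.19).

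The banding response in IL-18 null minus that in wild type was at least 2-fold higher for 2 of the 7 probe sets that reached the floor on some array, where 18.8% of 7366 were, and lower for 0, where 24.9% were. These were Igf1 1437401_at (1.15) and Igfbp3 (1.02). Tgfbr1 was at 0.88, Tgfbr2 and Igfbp5 at 0.16 each, and Igfbp7 at -0.09. For Igf1 1419519_at both IL-18 null arrays were below the floor, so its banding response in IL-18 null was not measured and its difference of responses has no limit on either side. The direction of the small values depended on the scaling: after cyclic loess Tgfbr2 was at -0.12 and Igfbp5 at -0.11, and after quantile normalization Igfbp7 was at 0.07. After cyclic loess Igf1 1437401_at was at 0.87 and Igfbp3 at 0.73, so that neither was 2-fold, and of all probe sets 12.5% were higher and 28.5% lower. Under quantile normalization these shares were 26.2% and 21.1%. All 4 arrays enter each of these values, with 1 array each.

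An additive fit of banding and genotype over all 4 arrays in limma, with 1 residual degree of freedom, called no member for either term at an adjusted p under 0.05 (Benjamini-Hochberg over 7366 probe sets, 0.00% called for each term). Without adjustment 1.44% of probe sets passed for banding, 106 in all, and 0.190% for genotype, 14 in all. Igfbp7 was the member with the smallest p for banding, with an estimate of 1.15, an unadjusted p of 0.0444 and a limma adjusted p of 1.00. Both banded arrays showed its direction. For Igf1 1437401_at the estimates were 0.64 for banding and 0.91 for genotype, with unadjusted limma p values of 0.373 and 0.223. Unlike the differences above, the fit used log2 values that were not raised to the floor. The fit assumes 1 banding response for both genotypes, while that of Igf1 1437401_at was 1.22 in IL-18 null and 0.07 in wild type.

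Cell type markers also differed between the arrays. Summed over the 10 fibroblast markers, of which Tcf21 and Ddr2 reached the floor on no array, the intensity was 30144 in IL-18 null banded, 13223 in IL-18 null sham, 23952 in wild-type banded and 9906 in wild-type sham. The order of the arrays, and that of the macrophage sums below, was that of Igfbp7, but it was not the order of every marker. Col1a1, Col1a2 and Mfap5 had it. Dcn was highest in wild-type banded (10343.6, against 7040.9 in IL-18 null banded), and Col3a1 and Lum were higher in wild-type sham than in IL-18 null sham. Of 8 measured fibroblast markers, 5 were at least 2-fold higher and 0 lower with banding in each genotype. Over all genes by their brightest probe set, 6.98% were higher and 2.53% lower in IL-18 null, and 21.7% and 12.8% in wild type. The fibroblast markers also differed among themselves. Pdgfra was lower with banding in both genotypes (-0.84 in IL-18 null and -0.61 in wild type), and Dpt was at 0.43 and -0.35. The 9 macrophage markers, each of which reached the floor on some array, summed to 8358 in IL-18 null banded, 3510 in IL-18 null sham, 5998 in wild-type banded and 3173 in wild-type sham. Macrophages are a known source of IGF-1, and 5 of 8 measured macrophage markers were 2-fold higher and 0 lower with banding in each genotype, while Igf1 1437401_at differed by 1.22 in IL-18 null and by 0.07 in wild type. The markers differed among themselves in wild type. Csf1r, the receptor that defines the lineage, differed by 1.06 in IL-18 null and -0.67 in wild type, Mpeg1 by 1.91 and -0.51, and Adgre1 by 0.62 and -0.30. The complement gene C1qb differed by 2.06 in IL-18 null and 1.10 in wild type, C1qc by 1.46 and a bound of 3.40, Lyz2 by 0.93 and 1.62, and Fcgr3 by 1.83 and a bound of 1.14. C1qa was below the floor on both IL-18 null arrays and at a bound of 2.52 in wild type, while Cd68 was at a bound of 0.21 in IL-18 null and below the floor on both wild-type arrays.

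The 7 endothelial markers summed to 2770 in IL-18 null banded, 3670 in IL-18 null sham, 4200 in wild-type banded and 2583 in wild-type sham. Igfbp7, which endothelial cells express, was higher in banded than in sham in both genotypes. The endothelial sum was lower in banded than in sham in IL-18 null and higher in wild type. Of 5 measured endothelial markers in IL-18 null, 0 were 2-fold higher or lower, and of 7 in wild type 3 were higher and 0 lower. Smooth muscle and pericyte markers summed to 10008, 10574, 11796 and 12216 in the same order of arrays, with Myh11 and Cnn1 below the floor on all. Neutrophil markers summed to 998, 504, 85 and 902, with Csf3r and Mmp8 below the floor on all. T and NK cell markers summed to 219, 214, 176 and 320, with 4 of 6 below the floor on all arrays. The 3 atrial markers summed to 2097, 1765, 3919 and 1552, and the 2 red cell markers to 24.1, 37.6, 85.1 and 27.3. The part of any cell type in the member values was not tested.

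Genes of the same pathways were taken from lists, each gene by its brightest probe set. The lists were chosen with earlier results of these data known. Of 4827 genes in IL-18 null, 6.98% were higher by 2-fold or more with banding and 2.53% were lower, around a median of 0.08. In wild type 21.7% of 5040 genes were higher with banding and 12.8% lower, around a median of -0.08. Latency and activation genes, which hold TGF-beta inactive or free it, had 2 of 5 measured genes higher and none lower in either genotype (medians of 0.88 in IL-18 null and -0.23 in wild type). Thbs1, which encodes the activator thrombospondin 1, had 331.1 in IL-18 null banded, 97.5 in IL-18 null sham, 54.9 in wild-type banded and 37.4 in wild-type sham, so that both wild-type arrays lay below the floor. The latent TGF-beta binding protein gene Ltbp3 was higher by 1.43 in IL-18 null and at -0.33 in wild type, and Itgav, an integrin subunit that activates TGF-beta, was at 0.88 and -0.87. Ltbp4 went the other way, at -0.19 in IL-18 null and 2.02 in wild type, and Itgb5 was at 0.18 and 1.30.

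Co-receptors, SMADs and their regulators had 1 of 8 higher and 0 lower in each genotype (medians of 0.08 in IL-18 null and -0.31 in wild type). In IL-18 null the higher one was Skil, a repressor of SMAD signalling that TGF-beta itself induces, with 1265.2 in IL-18 null banded, 525.5 in IL-18 null sham, 634.1 in wild-type banded and 921.3 in wild-type sham. In wild type it was Eng, the endothelial co-receptor endoglin, at 1.83, against -0.23 in IL-18 null. The signal carriers Smad2 and Smad4 stayed within 0.28 of 0 in both genotypes, and Smad3 was below the floor on all arrays. Bambi, a decoy receptor, was at 0.47 in IL-18 null and -0.59 in wild type, Map3k7, a kinase of the SMAD-independent branch, at 0.30 and -0.43, Ski at -0.33 and 0.37, and the inhibitor Smad7 at -0.17 and -0.60.

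Of the other family ligands and antagonists 3 of 14 were measured. Fstl1, a secreted follistatin-like protein, was higher by 2.52 in IL-18 null and by 1.67 in wild type. Bmp1, a protease that processes procollagen, had bounds of 0.73 and 0.59, and Bmp6 was at -0.65 and 0.00.

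TGF-beta target genes were mostly higher in the banded arrays, while every TGF-beta ligand probe set was below the floor. In IL-18 null 11 of 13 measured targets passed 2-fold upwards and 0 downwards (median 2.27), and in wild type 7 of 12 were higher and 1 lower (median 1.05). The list was chosen with earlier results of these data known, so these counts are not an independent result. Many of the targets also answer to other signals, and Col1a1, Col1a2 and Col3a1 are in the fibroblast list as well. Fn1, which encodes fibronectin, had 1193.5 in IL-18 null banded, 87.1 in IL-18 null sham, 141.9 in wild-type banded and 48.7 in wild-type sham. Timp1, an inhibitor of matrix proteases, had 1327.3 in IL-18 null banded and 4.1, 33.2 and 4.5 in IL-18 null sham, wild-type banded and wild-type sham. Timp1 was thus above the floor on 1 array only, with a bound of 4.37. Postn, which encodes the matrix protein periostin, was higher by 3.37 in IL-18 null and 1.23 in wild type, Ccn2, the gene of connective tissue growth factor, by 3.01 and 0.78, and Col1a1 by 2.85 and 2.43. Tgfbi, a matrix protein named for its induction by TGF-beta, was higher by 1.45 in IL-18 null and was the lower one in wild type, at -1.47. Id1 was at 1.24 in IL-18 null and at a bound of 3.17 in wild type, and Tagln at 1.26 and a bound of 2.32.

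On the IGF side, the receptor gene Igf1r was below the floor on all arrays, and so was Insr, which encodes the insulin receptor. Receptors and signalling genes had 0 of 16 measured members 2-fold higher or lower in IL-18 null (median 0.23), and 6 higher and 1 lower in wild type (median 0.23). The kinase gene Akt1 had 881.3 in IL-18 null banded, 572.1 in IL-18 null sham, 1361.1 in wild-type banded and 164.5 in wild-type sham. As for several genes of this list, wild-type sham was the low array. Akt2 was at 0.37 in IL-18 null and a bound of 3.41 in wild type, Eif4ebp1, a translation repressor, at 0.62 and 2.37, Tsc2 at a bound of -0.35 and a bound of 2.16, and Igf2r, which clears IGF-2, at 0.54 and 1.27. The adaptor gene Irs1 was at -0.58 and -0.54.

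Of the other binding proteins and their proteases 3 of 11 were measured, with 0 higher and 1 lower in IL-18 null and 2 higher and 0 lower in wild type. Igfbp4 had 3110.6 in IL-18 null banded, 2062.1 in IL-18 null sham, 3124.7 in wild-type banded and 637.1 in wild-type sham. Htra1, a serine protease that cleaves binding proteins, had 347.6 in IL-18 null banded, 738.8 in IL-18 null sham, 660.6 in wild-type banded and 128.1 in wild-type sham. For both, wild-type sham was the lowest of the arrays, and for Htra1 the banded array was below sham in IL-18 null (-1.09) and above it in wild type (2.37). Igfbp6 was at 0.63 in IL-18 null and 0.38 in wild type.

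**Figure D4:**
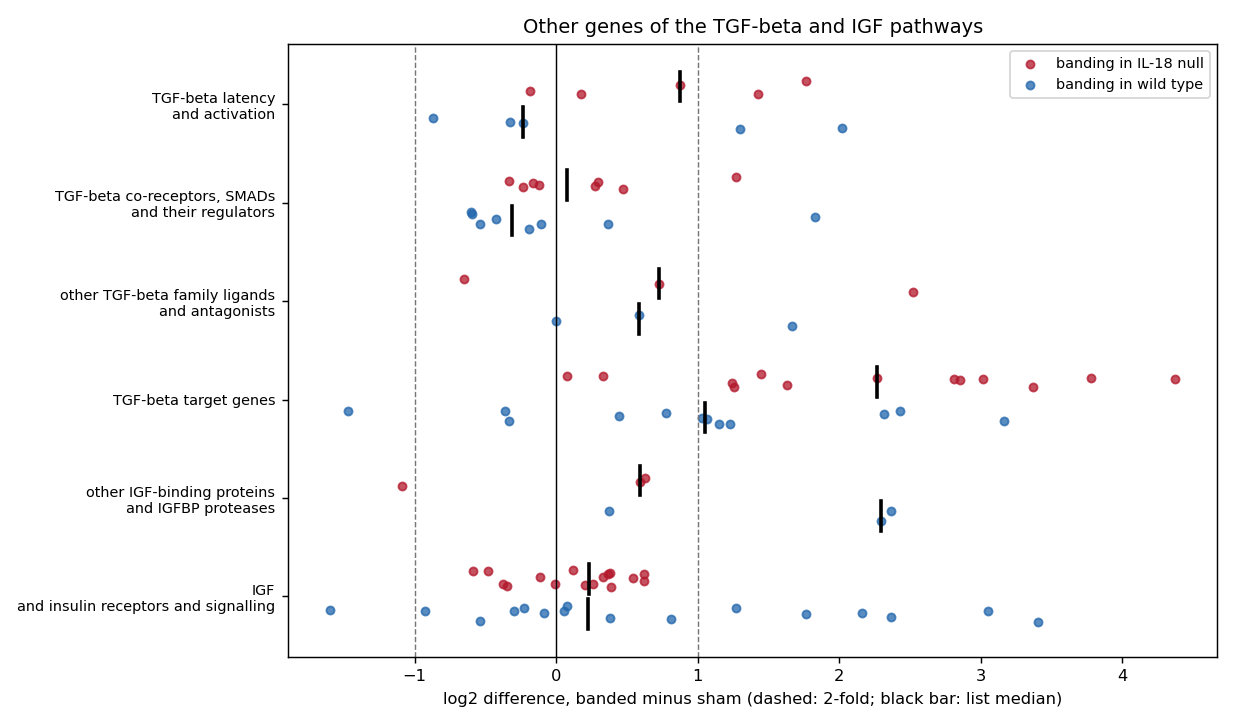
Log2 difference (banded minus sham) of each measured gene in 6 pathway lists, with IL-18 null above wild type in each list, black bars at the list medians and dashed lines at 2-fold. Target genes have medians of 2.27 in IL-18 null and 1.05 in wild type, and receptor and signalling genes of the IGF and insulin pathways have 0 of 16 members past 2-fold in IL-18 null.

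Among 3990 other genes measured on all 4 arrays, those with the profile nearest to Igf1 1437401_at, by Euclidean distance between centred log2 values over the 4 arrays, were Mob1a (0.20), Reep3 (0.28) and Dpysl3 (0.29). For Igfbp7 they were Rars (0.14), Mindy1 (0.18) and Nppb (0.19), the gene of B-type natriuretic peptide. Nppb had 7945.8 in IL-18 null banded and 3607 in IL-18 null sham, against 6306.9 in wild-type banded and 2417.9 in wild-type sham. The likeness rests on 4 arrays and describes these arrays only.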

How the data were processed

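Total RNA of mouse left ventricle was hybridised with biotin label to 4 arrays, 1 per group, grouped by the titles. The deposited values are intensity values per probe set on a linear scale, made by the authors with GCRMA per the submitters' processing notes; its version and settings are not stated in the sources used here. Of 22690 probe sets, 64 were controls, 20380 had 1 gene in the platform annotation, 691 several and 1555 none; only those with 1 gene were used. The 10 symbols matched RefSeq (GRCm38.p6) through gene IDs. Differences between arrays had no test. The additive fit used limma 3.58.1 (R 4.3.3, lmFit and eBayes with intensity trend), and was checked on simulated data. It took probe sets with at least 1 array at or above the floor, with log2 values not raised to the floor. The simulated banding response was the same in both genotypes, so the check does not show what the fit could detect on these arrays. Where a floor was set, percentages of all probe sets count those with at least 1 compared array at or above it. Members, lists and naming rules (all members; up to 4 genes per list and banding comparison by size; the 3 nearest profiles) were chosen with earlier results of these data known. Alternatives were floors at log2 5 and 7, no floor, quantile normalization, cyclic loess, leaving out probe sets ending in _x_at or _s_at and, for limma, no trend. The number of arrays limits the precision.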

Additional observations from a re-analysis of the deposited data

Results flagged for a closer look

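For 3 probe sets the banding difference had opposite signs in the 2 genotypes, each genotype having 1 array per surgery group, so the difference between genotypes was not tested. For Igfbp3 it was 0.08 in IL-18 null and -0.93 in wild type, a difference of 1.02. For Tgfbr1 it was 0.07 and -0.81, a difference of 0.88. For Igfbp5 it was 0.05 and -0.11, a difference of 0.16. The IL-18 null values lay close to 0, and over the alternative settings they reached -0.02 for Igfbp3, -0.05 for Tgfbr1 and -0.07 for Igfbp5. For Igfbp5 the signs turned under cyclic loess, to -0.05 in IL-18 null and 0.07 in wild type, a difference of -0.11. In all 3 the wild-type sham array had the highest intensity, and its 3′ bias index was the highest as deposited (4.74, against 3.37 in IL-18 null sham), though not with values raised to the floor (3.04). The part of this in the member values was not tested.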

How the results depend on the processing

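Counts of members at least 2-fold different were recomputed under 6 alternatives. For banding in IL-18 null the count of 2 became 4 with no floor, and 1 after quantile normalization or cyclic loess, where Igfbp7 lay just under 2-fold. The share of all probe sets at least 2-fold different was 10.8% in the main setting. It was 5.99% with no floor, 10.3% after quantile normalization and 10.5% after cyclic loess. For banding in wild type the count of 1 became 2 with the floor at log2 5, 3 with no floor and 3 after quantile normalization, where all 3 were lower. The share of all probe sets was 36.4% in the main setting, and 36.9%, 23.1% and 42.5% under these alternatives. For genotype in sham the count of 0 became 1 with the floor at log2 5, with no floor and after quantile normalization, each time Igf1 1419519_at. The share of all probe sets was 24.4% in the main setting, and 25.1%, 13.3% and 27.3% under these alternatives. For the difference of banding responses the count of 2 became 3 with the floor at log2 5, 4 with no floor, 4 after quantile normalization and 0 after cyclic loess. The share of all probe sets was 43.7% in the main setting, and 43.7%, 27%, 47.3% and 41.1% under these alternatives. The count for genotype in banded was 1 under every alternative run, Igf1 1437401_at each time. That probe set lay at 224 or more on every array, so its value could change only under quantile normalization (1.58) and cyclic loess (1.32). For genotype in banded the share of all probe sets was 16% in the main setting and 10.2% to 17.4% under the alternatives. Counts and shares with no floor include values near background. Of 205 single values compared, 188 kept their side of 2-fold, 12 passed it, 5 lost it and 0 called values changed sign. Much of this was fixed in advance. The 6 probe sets measured on all arrays lay above every floor used, so only quantile normalization and cyclic loess could change their values. All 5 losses came under these scalings. Leaving out probe sets by name ending changed no remaining value. With the floor at log2 7, Igf1 1419519_at was below it on all arrays, and its values of 0 count as kept. The limma fit called 0 members under each setting run. No paired analysis was possible because each group has 1 array and the labels give no replicate numbers. Signal over background limits the 15 probe sets below the floor.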

Other observations

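Some pathway genes had signal on 1 array far above the other 3. Lox, which encodes a collagen cross-linking enzyme, had 448.4 in IL-18 null banded, against 14.1 in IL-18 null sham, 41.4 in wild-type banded and 30.7 in wild-type sham. Eng had 181 in IL-18 null banded, 213 in IL-18 null sham, 696.2 in wild-type banded and 195.9 in wild-type sham, and Ltbp4 had 156.5, 178.1, 670.4 and 165.4 on the same arrays. C1qa, a complement gene of macrophages, had 6.3, 6.3, 366.9 and 6.6, while C1qb had 1902.4, 454.7, 900.4 and 421.5. These genes were picked after their values were seen. Wild-type banded, the high array for Eng, Ltbp4 and C1qa, had the lowest 3′ bias index (0.72), and the part of this in their values was not tested.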
